A study of Mus musculus with 217 samples.

Results

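Isopropyl β-D-1-thiogalactopyranoside (IPTG) was given to wild-type mice of a *Lac* operator/repressor line, and the cortex of treated mice at 6 months of age was compared with that of untreated mice. The 20 libraries, of 217 in all, were those whose column names and titles gave cortex, WT and 6 months: 10 WT + IPTG and 10 WT mice, with 5 females and 5 males on each side. The titles of the WT mice without IPTG carry the word MOCK, and these mice are called untreated here. Every mouse, treated or not, was of the C57BL/6 background, carried a beta-actin-LacIR transgene, whose promoter drives the *Lac* repressor in all tissues, and had the genotype that the labels write as Hdh(LacO-+/+); no mutant *Htt* allele was present. IPTG was started at E5 through the dam and kept up, in drinking water or chow, to the day of collection, and the treated and untreated mice were housed apart, so cage and treatment cannot be told apart. The comparison asks what the inducer does to cortical expression in mice that have no allele for it to switch on.

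IPTG is a galactoside that animals do not break down. It releases the bacterial *Lac* repressor from its operator, which is why it serves as a switch for transgenes and knock-in alleles. The gene groups that bear on the comparison here are the sterol genes, which the sterol-sensing factor SREBP-2 turns on when membrane cholesterol is low; the immediate early genes, which neurons transcribe within minutes of activity; and the genes that respond to glucocorticoids and to fasting, which in brain are carried largely by astrocytes and by the cells of vessels.

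Values per gene are CPM, read counts relative to the size of the library, scaled between libraries by TMM, and a gene was called when its adjusted p-value (edgeR quasi-likelihood test, Benjamini-Hochberg) was under 0.05 and its level differed by at least 20%. The 20 libraries held 37915538 to 68038831 counts. Females and males matched their labels by *Xist* and by 4 genes of the Y chromosome. One WT library, WT M4, stood apart: the summed level of 20 neutrophil genes was 567.6 CPM there and 3.44 to 13.5 CPM in the other 19, and that of 5 red blood cell genes was 1780.3 CPM against 196 to 823 CPM. In the striatum of the same mouse the neutrophil sum was 8.52 CPM, against 3.14 to 7.28 CPM in the other 19 mice. The WT + IPTG libraries M1 and F4 held 2121 and 2008 CPM of 11 choroid plexus genes, against 12.4 to 178 CPM in all others. The slope of log2 counts on transcript length, which can differ with RNA quality, was -0.287 to -0.0319 in WT and -0.233 to -0.127 in WT + IPTG.

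Of 35987 genes, 219 were called with IPTG (0.609% of those tested), of which 90 had risen (0.25%) and 129 had fallen (0.358%), and 4278 had an unadjusted p under 0.05. Without WT M4, 324 of 35913 genes were called (0.902%), 174 risen (0.485%) and 150 fallen (0.418%), and 191 of the 219 were among them, 87 risen and 104 fallen. Of the 28 that were lost, 25 had fallen, and in 20 more than 50% of the level summed over the 10 WT libraries came from WT M4. Most changes were small: among the 173 genes called both ways with a mean of at least 1 CPM, only 6 differed by more than 1 on the log2 scale. Without the 2 libraries with choroid plexus genes 124 genes were called, 39 risen and 85 fallen, and 118 of them were among the 219; without all 3 libraries 152 were called, 59 risen and 93 fallen. The risen count moved with single libraries: it was 28 without WT M5, 37 without WT M2, 45 without WT + IPTG M1, 46 without WT + IPTG M4, 51 without WT F3, 54 without WT + IPTG F3 and 159 without WT F4, where the fallen count was 75, 70, 81, 90, 97, 106 and 171 in the same order.

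**Figure D1:**
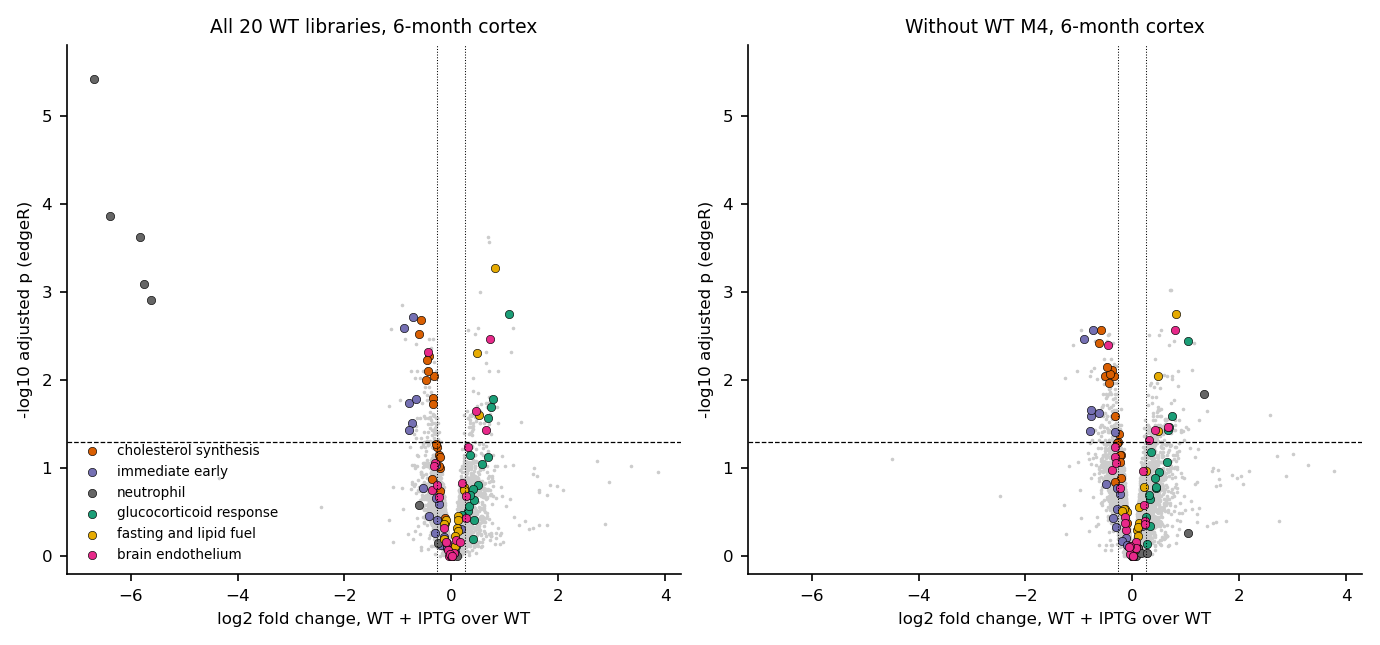
Log2 fold change, WT + IPTG over WT, against -log10 of the adjusted p-value (edgeR) for the 14807 genes with a mean of at least 1 CPM in 6-month cortex, with all 20 libraries (left) and without WT M4 (right). Colours mark 6 gene lists, the dashed line an adjusted p of 0.05 and the dotted lines a change of 20%. The neutrophil genes at the far left of the first panel are not there in the second, while the called sterol and immediate early genes stay to the left of 0 in both. Some members of these 2 lists that were not called lie to the right of 0.

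The largest fold changes of the whole comparison were those of neutrophil genes, and a single mouse set them. *Camp* (cathelicidin, an antimicrobial peptide) was at 48.1 CPM in WT M4, at most 0.0645 CPM in the other 9 WT libraries and 0 to 0.129 CPM in WT + IPTG. *S100a9*, a calcium-binding protein of neutrophils, was at 219 CPM in WT M4, at most 0.634 CPM in the other WT libraries and at 0.233 to 0.858 CPM (median 0.307) in WT + IPTG. Of the 20 neutrophil genes 11 were called as fallen (*Camp*, *Ngp*, *S100a8*, *S100a9*, *Ltf*, *Mpo*, *Retnlg*, *Mmp8*, *Chil3*, *Cd177* and *Fcnb*), with log2 fold changes from -6.69 (*Camp*, adjusted p = 3.79e-06) to -3.06 (*Fcnb*, adjusted p = 0.0499). Without WT M4 none of these 11 was called, and the fold change of each turned positive, from 0.01 for *Ltf* to 1.66 for *Cd177*. The list then held 1 call, *Lcn2*, which had risen. In bulk tissue more cells of a type and more RNA per cell cannot be told apart.

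Part of the genes of cholesterol synthesis and uptake fell with IPTG. Of 20 such genes 9 had fallen and none had risen, with WT M4 or without it, and the median log2 fold change of the list was -0.31 (-0.30 without WT M4), against -0.001 over all genes of at least 1 CPM. By sex, the list median was -0.10 in females and -0.46 in males. Among the 9 were *Hmgcs1*, which makes its first committed precursor; *Idi1* and *Fdps*, of the isoprenoid steps; *Sqle*, *Cyp51* and *Msmo1*, of the sterol steps; *Insig1*, which holds SREBP-2 back in the endoplasmic reticulum; and *Stard4*, a sterol carrier. The bases before the start of *Hmgcs1* (chr13:119690101-119690350, strand +, GRCm38.p6, RefSeq) are shown because this gene carries the letters of the sterol element TCACNCCAC, in capitals, 137 bases before its start.

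Hmgcs1: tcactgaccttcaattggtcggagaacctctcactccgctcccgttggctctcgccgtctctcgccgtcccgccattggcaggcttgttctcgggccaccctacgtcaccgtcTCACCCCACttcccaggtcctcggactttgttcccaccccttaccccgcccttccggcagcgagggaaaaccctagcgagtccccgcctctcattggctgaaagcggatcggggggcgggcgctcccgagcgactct

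Among the windows of 250 bases before the starts of the 13 genes of the list that the RefSeq promoter set used held, *Hmgcs1* was the only one to hold TCACNCCAC on either strand, and of 27025 genes with such windows 331 (1.22%) held it.

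*Hmgcs1* (ENSMUSG00000093930, chromosome 13, 119690379 to 119708260, GRCm38) was at 178 to 366 CPM (median 234) in WT and 149 to 211 CPM (median 181) in WT + IPTG (log2 fold change -0.47, SE 0.101, adjusted p = 0.00997). The groups overlapped, with 5 treated libraries below the lowest untreated one. *Idi1* showed the largest fall of the list, and was at 48.96 to 110.3 CPM (median 67.9) in WT and 40.7 to 57.8 CPM (median 48.7) in WT + IPTG (log2 fold change -0.61, SE 0.114, adjusted p = 0.00296). *Insig1* was at 80.5 to 118 CPM (median 95.9) in WT and 56.96 to 83.7 CPM (median 72.3) in WT + IPTG, with a log2 change of -0.46 (SE 0.0918, adjusted p = 0.00593) and 7 treated libraries below the untreated range. For 5 others the fall was smaller, with log2 fold changes of -0.43 for *Msmo1*, -0.42 for *Cyp51* and -0.33 for *Sqle*, and with *Stard4* at -0.35 and *Fdps* at -0.34 (adjusted p = 0.00537 for *Cyp51*, 0.00784 for *Msmo1*, 0.00906 for *Sqle*, 0.016 for *Stard4* and 0.0184 for *Fdps*).

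The remaining 11 genes of the list were not called. *Srebf2*, which encodes SREBP-2 itself, was near 0, at 0.00 on the log2 scale (SE 0.0764, adjusted p = 1). Of the 20 genes 2, *Srebf2* and *Ebp*, had a positive fold change. Outside the list *Acat2*, a thiolase of the same pathway, was at 42.9 to 64.2 CPM (median 50.3) in WT and 37.3 to 44.2 CPM (median 41.1) in WT + IPTG (adjusted p = 0.00619), and *Scd1*, which desaturates fatty acids, at 256 to 384 CPM (median 322) and 219.6 to 284 CPM (median 265) (adjusted p = 0.0305); both were picked after their values were seen. Leaving out any 1 of the 20 libraries left 7 to 11 of the sterol genes called, all fallen.

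**Figure D2:**
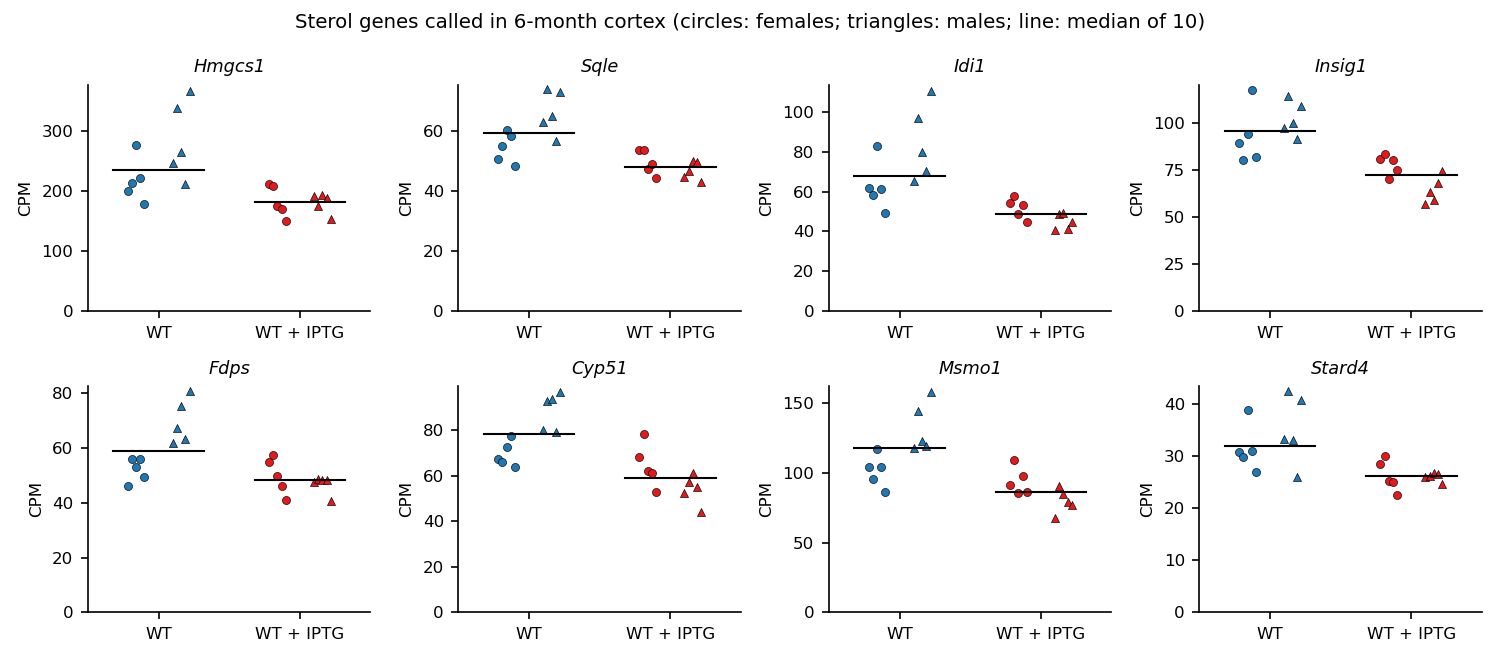
CPM of 8 of the sterol genes called in 6-month cortex, for each of 10 WT and 10 WT + IPTG libraries; circles are females, triangles males and lines the median of 10. For each gene the WT + IPTG median lies below the WT median.

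Some immediate early genes fell. Of 23 genes 6 had fallen and none had risen (*Fos*, *Egr2* and *Nr4a1*, transcription factors; *Arc*, a protein of dendrites and synapses; *Dusp1*, a phosphatase of MAP kinases; and *Btg2*, an antiproliferative factor), and the median log2 fold change of the list was -0.27. Without WT M4 the 6 were 7, with *Nr4a2*. By sex, the list median was -0.10 in females and -0.40 in males. The core of the cyclic AMP response element, TGACG, was in the promoters of the 5 with a window in the RefSeq promoter set used, *Egr2* among them (in 3 of its 5 windows). That set held no window for *Arc*, which was not examined. The 4 of these with a single window are shown, with the core in capitals on either strand (250 bases before the start, GRCm38.p6, RefSeq: *Fos* chr12:85473640-85473889, strand +, *Nr4a1* chr15:101266596-101266845, strand +, *Dusp1* chr17:26508473-26508722, strand -, and *Btg2* chr1:134079156-134079405, strand -).

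Fos: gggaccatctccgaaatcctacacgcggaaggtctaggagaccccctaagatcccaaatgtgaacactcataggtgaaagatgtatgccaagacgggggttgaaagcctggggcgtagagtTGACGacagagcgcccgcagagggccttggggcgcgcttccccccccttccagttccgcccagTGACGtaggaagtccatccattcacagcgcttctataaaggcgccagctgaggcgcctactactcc

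Nr4a1: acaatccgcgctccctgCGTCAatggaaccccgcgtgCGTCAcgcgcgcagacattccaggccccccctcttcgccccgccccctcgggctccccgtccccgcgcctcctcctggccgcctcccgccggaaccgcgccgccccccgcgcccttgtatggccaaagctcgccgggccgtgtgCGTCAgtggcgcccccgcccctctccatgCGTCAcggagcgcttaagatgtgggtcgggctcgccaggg

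Dusp1: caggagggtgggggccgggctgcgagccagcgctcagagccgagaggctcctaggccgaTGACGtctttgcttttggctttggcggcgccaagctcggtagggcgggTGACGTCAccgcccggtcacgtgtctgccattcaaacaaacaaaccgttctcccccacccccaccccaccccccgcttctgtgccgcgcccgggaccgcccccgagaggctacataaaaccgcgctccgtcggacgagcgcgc

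Btg2: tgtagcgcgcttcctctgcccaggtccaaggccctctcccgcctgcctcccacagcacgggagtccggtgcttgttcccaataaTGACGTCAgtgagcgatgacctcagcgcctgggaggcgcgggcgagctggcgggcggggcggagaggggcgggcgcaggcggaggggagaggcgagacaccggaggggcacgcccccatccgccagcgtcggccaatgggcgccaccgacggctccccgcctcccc

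Of the 18 genes of the list with a window 14 (77.8%) held TGACG in at least 1 window, whether called or not, against 5347 (19.8%) of 27025 genes; the full element TGACGTCA, which contains the core on both strands, was in 2 of the 18, *Dusp1* and *Btg2*, and in 1.77% of all genes.

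*Fos* (ENSMUSG00000021250, chromosome 12, 85473890 to 85477273) was at 30.9 to 86.03 CPM (median 53.9) in WT and 24.2 to 36.05 CPM (median 29.1) in WT + IPTG (log2 fold change -0.89, SE 0.164, adjusted p = 0.00258), and the 2 highest of all 20 libraries, above 80 CPM, were untreated males. *Dusp1* (ENSMUSG00000024190, chromosome 17, 26505590 to 26562128), at 45.9 to 93.6 CPM (median 66.3) in WT, was at 34.5 to 47.9 CPM (median 38.5) in WT + IPTG (log2 fold change -0.72, SE 0.128, adjusted p = 0.0019). Only 2 treated libraries were above the lowest untreated one. The RefSeq start used for its promoter lies inside this span, which in the GENCODE annotation also holds a longer transcript. *Arc* was at 318 to 813 CPM (median 438) in WT and 151 to 381 CPM (median 295.6) in WT + IPTG (log2 fold change -0.78, SE 0.177, adjusted p = 0.0183). *Nr4a1*, *Egr2* and *Btg2* fell by 0.65, 0.80 and 0.74 on the log2 scale (adjusted p = 0.0161, 0.0367 and 0.0305). For *Btg2* 1 treated male, at 41.4 CPM, was above the untreated median.

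The other 17 were not called, and they include genes of the same activity response: *Egr1* had a log2 fold change of -0.27 (adjusted p = 0.387), *Npas4* of -0.19 (adjusted p = 0.744) and *Fosb* of 0.02 (adjusted p = 1). The 6 calls rested in part on 2 untreated males: without WT M2 or without WT M3 only *Fos* and *Dusp1* were called. Without the libraries with high choroid plexus genes 4 were called. *Sik1*, a kinase that cyclic AMP induces, was picked after its values were seen and was at 14.1 to 32.7 CPM (median 20.1) in WT and 10.6 to 20.02 CPM (median 15.4) in WT + IPTG (log2 fold change -0.51, adjusted p = 0.0498).

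Some genes that respond to glucocorticoids and some of fasting and lipid fuel rose with IPTG. Of 22 glucocorticoid genes 4 had risen, and 5 without WT M4, with *Lcn2*, which is also in the neutrophil list (the 4 were *Zbtb16*, a transcription factor; *Arrdc2*, an arrestin-related adaptor; *Map3k6*, a kinase; *Angptl4*, a secreted inhibitor of lipoprotein lipase) and 1 had fallen, *Dusp1*, which is also an immediate early gene; the median log2 fold change of the list was 0.38 (0.34 without WT M4). Of 23 fuel genes 4 had risen and none had fallen, among them *Angptl4* again, *Ucp2*, a mitochondrial carrier, and *Txnip*, which limits glucose uptake. The median of that list was 0.11, and the genes of fatty acid oxidation in it (*Cpt1a*, *Acadm*, *Hadha* and others) were not called. By sex, the median of the glucocorticoid list was 0.07 in females and 0.61 in males.

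*Ucp2* (ENSMUSG00000033685, chromosome 7, 100493337 to 100502020) was at 17.6 to 40.7 CPM (median 25.1) in WT and 35.1 to 66.3 CPM (median 42.1) in WT + IPTG (log2 fold change 0.81, SE 0.133, adjusted p = 0.000529). One untreated female, at 40.7 CPM, was as high as treated mice, and the other 9 untreated libraries were below 35.1 CPM. *Angptl4* (ENSMUSG00000002289, chromosome 17, 33773750 to 33781830) was at 2.34 to 12.4 CPM (median 7.48) in WT and 8.09 to 27.9 CPM (median 14.2) in WT + IPTG (log2 fold change 1.08, SE 0.191, adjusted p = 0.00179). *Txnip* was at 32.1 to 56.1 CPM (median 45.7) and 48.7 to 82.2 CPM (median 62.9) (log2 fold change 0.49, SE 0.0962, adjusted p = 0.00493). These 3 were called with each of the 20 libraries left out in turn. *Zbtb16* was at 15.3 to 33.99 CPM (median 21.7) in WT and 20.5 to 57.3 CPM (median 37.9) in WT + IPTG (log2 fold change 0.78, SE 0.173, adjusted p = 0.0162). *Arrdc2* and *Map3k6* rose by 0.74 and 0.69 on the log2 scale (adjusted p = 0.0203 and 0.0267).

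**Figure D3:**
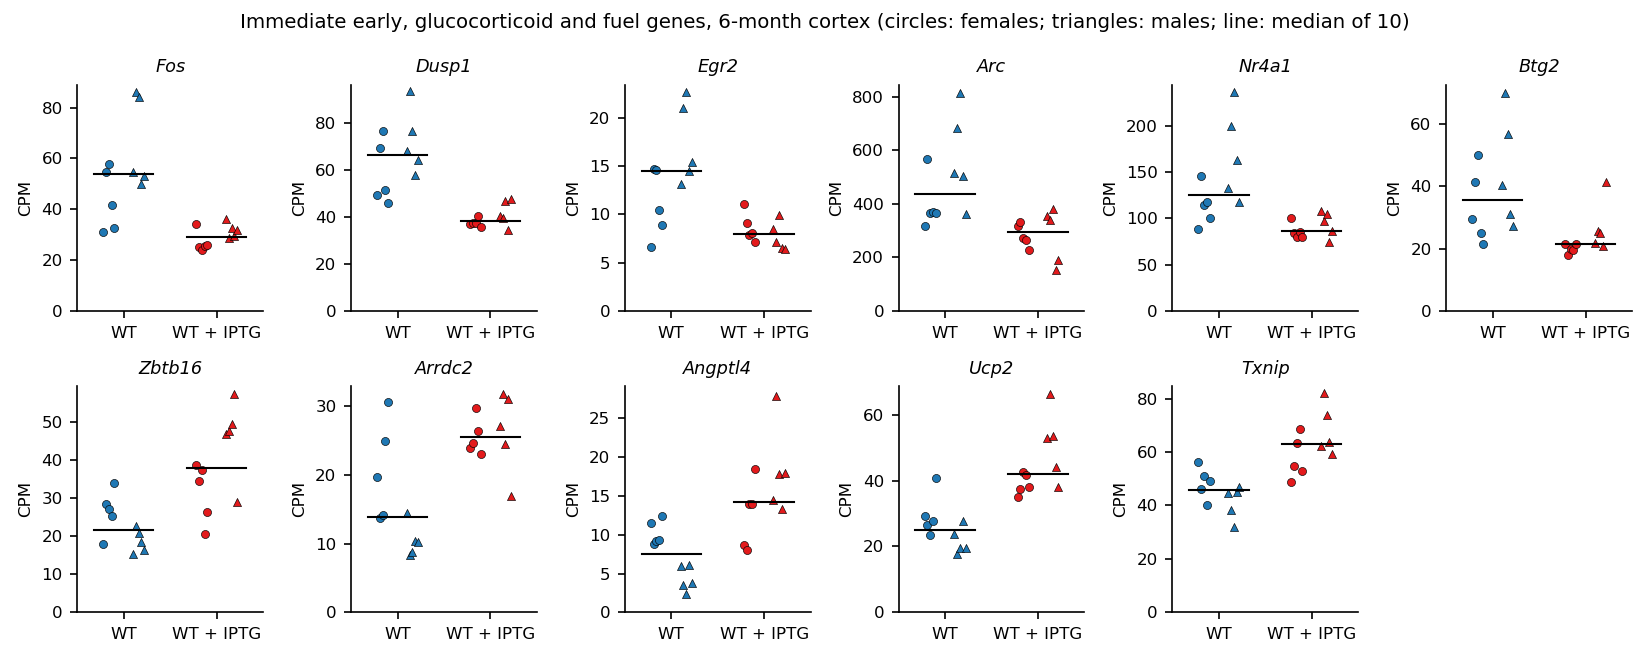
CPM of 6 immediate early genes (upper row) and of 5 glucocorticoid and fuel genes (lower row) in each of 10 WT and 10 WT + IPTG libraries of 6-month cortex; circles are females, triangles males and lines the median of 10. Untreated males hold the highest values for *Fos*, *Egr2*, *Arc* and *Nr4a1* and the lowest values for *Arrdc2* and *Angptl4*.

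Other known glucocorticoid targets in the list were not called. *Fkbp5*, a co-chaperone of the receptor, was at 25.3 to 71.8 CPM (median 36.3) in WT and 44.5 to 80.5 CPM (median 53.9) in WT + IPTG (log2 fold change 0.50, adjusted p = 0.153), *Sgk1* had a log2 fold change of 0.31 (adjusted p = 0.307), *Tsc22d3* 0.34 (adjusted p = 0.2) and *Per1* -0.01 (adjusted p = 1). The risen count of this list depended on single libraries: it was 8 without WT F5, 2 without WT M2 or without WT + IPTG M4, and 1 without WT M5. Without the libraries with high choroid plexus genes 3 glucocorticoid and 3 fuel genes had risen. *Klf15*, a transcription factor of both responses, picked after its values were seen, was at 22.9 to 49.4 CPM (median 33.2) in WT and 36.3 to 61.6 CPM (median 44.6) in WT + IPTG (log2 fold change 0.48, adjusted p = 0.0267).

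Several genes of vessels rose, and the median of the endothelial list was near 0. Of 26 genes of brain endothelium 4 had risen, and 5 without WT M4, with *Ly6c1* (the 4 were *Ly6a*, a surface antigen; *Pglyrp1*, which binds bacterial cell walls; *Ctla2a*, a protease inhibitor; *Slc2a1*, the glucose transporter of the blood-brain barrier) and 1 had fallen, *Tek*, the angiopoietin receptor; the median of the list was 0.003. *Ly6a* (ENSMUSG00000075602, chromosome 15, 74994877 to 74998031), also an interferon-response gene and the only one of 29 called (without WT M4 *Bst2* was too), was at 26.7 to 41.3 CPM (median 37.4) in WT and 41.7 to 66.9 CPM (median 50.4) in WT + IPTG (log2 fold change 0.49, SE 0.0901, adjusted p = 0.00258). Its treated and untreated libraries did not overlap. *Pglyrp1* was at 5.70 to 11.9 CPM (median 8.23) and 11.4 to 17.1 CPM (median 13.7) (log2 fold change 0.73, SE 0.138, adjusted p = 0.00341), with 1 treated library under the highest untreated one. *Slc2a1* was at 115.1 to 207 CPM (median 143) and 137 to 287.4 CPM (median 187) (0.46, SE 0.107, adjusted p = 0.0225), and *Tek* at 16.2 to 27.6 CPM (median 19.6) and 13.9 to 18.5 CPM (median 15.5) (-0.44, SE 0.0864, adjusted p = 0.00473). Of the genes not called with all libraries, *Cldn5*, *Pecam1*, *Flt1* and *Cdh5* had log2 fold changes of -0.03, 0.08, -0.01 and 0.02. Others moved further: *Kdr* by -0.35, *Itm2a* by -0.32, *Slc16a1* by -0.31 and *Slco1a4* by -0.27, and *Ly6c1* by 0.31, *Mfsd2a* by 0.28 and *Vwf* by 0.27. Of the 26 genes 13 had a positive fold change. Their summed level was 1181 to 1346 CPM in WT and 1236 to 1521 CPM in WT + IPTG. Without WT M2, without WT M5 or without WT + IPTG M2 only 3 of the 5 were called, and without the 2 libraries with high choroid plexus genes 2 genes had risen and 1 had fallen, with WT M4 or without it.

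*Tinagl1* (ENSMUSG00000028776, chromosome 4, 130164454 to 130175122), a secreted matrix protein, was at 9.79 to 17.6 CPM (median 14.7) in WT and 16.3 to 30.2 CPM (median 22.2) in WT + IPTG (log2 fold change 0.71, SE 0.111, adjusted p = 0.000266). In 9 of 10 treated libraries it was above every untreated one. Among genes picked after their values were seen, the basement membrane collagens *Col4a1* and *Col4a2* rose by 0.44 and 0.44 on the log2 scale (adjusted p = 0.0262 and 0.0498), elastin (*Eln*) by 0.52 (adjusted p = 0.0239), *Sox17* by 0.51 (adjusted p = 0.0139) and *Notch4* by 0.47 (adjusted p = 0.0293). The 14 meningeal fibroblast genes, none of them called, summed to 256 to 344 CPM in WT and 246.1 to 438 CPM in WT + IPTG, and their part in these changes was not tested. Also picked so, the adhesion molecule *Sele* and the chemokines *Cxcl1* and *Cxcl2* were called as fallen (log2 fold changes -4.05, -2.93 and -4.27, adjusted p = 0.00339, 0.0135 and 0.00979), but *Sele* was at 5.90 CPM in WT M3 and at most 0.258 CPM in any other WT library, *Cxcl1* at 8.05 CPM in WT M3 and 2.54 CPM in WT M2, and *Cxcl2* at 1.59 CPM in WT M3; the treated libraries reached 0.0779, 0.321 and 0.0389 CPM.

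Of 28 microglial genes 1 was called. *Nrros* (ENSMUSG00000052384, chromosome 16, 32142785 to 32165594), a membrane protein of microglia, had the smallest p-value among the named risen genes of at least 1 CPM called with and without WT M4. It was at 4.71 to 8.89 CPM (median 6.93) in WT and 8.84 to 13.002 CPM (median 10.1) in WT + IPTG (log2 fold change 0.69, SE 0.108, adjusted p = 0.000236). Only 1 treated library was below the highest untreated one. The list had a median log2 fold change of -0.10, and its summed level was 1077 to 1302 CPM in WT and 1085 to 1364 CPM in WT + IPTG. *P2ry12*, a purine receptor of resting microglia, was called as fallen only without WT M4 (log2 fold change -0.42, adjusted p = 0.0523, and 0.0386 without that library).

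Astrocyte and myelin lists each held 2 fallen genes and no risen one. Of 17 astrocyte genes *Aqp4*, the water channel of endfeet, was at 96.2 to 181 CPM (median 124) in WT and 87.9 to 122 CPM (median 97.1) in WT + IPTG (log2 fold change -0.40, adjusted p = 0.0228), and *Gja1*, a connexin, at 189.6 to 298.8 CPM (median 239.6) and 172 to 212 CPM (median 198) (-0.28, adjusted p = 0.0328). *Aqp4* was also the only gene called among 12 of the osmotic response. Of 18 myelin genes *Ugt8a*, which makes the galactolipids of myelin, was at 21.9 to 67.8 CPM (median 38.6) and 22.3 to 30.3 CPM (median 25.3) (log2 fold change -0.64, SE 0.134, adjusted p = 0.00784). *Gja1* was near the threshold and stayed called in 10 of the 20 fits without a library. Without WT M2, or without WT M5, neither astrocyte gene was called, nor with only the WT libraries in the fit. Without the 2 libraries with high choroid plexus genes no astrocyte gene and 1 myelin gene was called, and when WT M4 was left out as well 2 and 1. With 1 library left out 1 to 4 myelin genes were called, 4 of them without WT F4.

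Among the genes with the smallest p-values outside these lists, some stood well apart between the groups. *Lrfn2* (ENSMUSG00000040490, chromosome 17, 48932379 to 49097588), a synaptic adhesion protein, was at 11.5 to 16.7 CPM (median 15.3) in WT and 16.97 to 26.1 CPM (median 20.9) in WT + IPTG (log2 fold change 0.53, SE 0.0907, adjusted p = 0.00101), with no overlap. *Pnrc1*, a nuclear receptor coactivator, was at 23.6 to 35.1 CPM (median 28.3) and 18.7 to 22.9 CPM (median 21.4) (log2 fold change -0.41, SE 0.0781, adjusted p = 0.00341), and *Pou3f2*, a transcription factor of upper-layer neurons, at 18.2 to 28.99 CPM (median 20.1) and 14.99 to 17.6 CPM (median 16.2) (-0.41, SE 0.0879, adjusted p = 0.0119). Neither overlapped. *Dnajc1*, a chaperone partner of the endoplasmic reticulum, was at 14.7 to 16.8 CPM (median 16.2) and 17.7 to 19.6 CPM (median 18.7) without overlap (adjusted p = 0.0248), but its log2 fold change of 0.23 was under the bound of 20%. With *Ly6a* these were the only 5 of 14807 genes of at least 1 CPM (0.0338%) whose treated and untreated libraries did not overlap; without WT M4 they were 19.

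*Trim59*, of the tripartite motif family, was at 9.62 to 22.7 CPM (median 11.99) in WT and 4.75 to 10.04 CPM (median 7.91) in WT + IPTG (log2 fold change -0.92, SE 0.161, adjusted p = 0.00142). Its p-value was the smallest among the named fallen genes of at least 1 CPM called with and without WT M4. *Rpe65*, an enzyme of the retinoid cycle, was at 2.21 to 7.52 CPM (median 5.03) and 1.01 to 3.78 CPM (median 1.99) (log2 fold change -1.13, SE 0.208, adjusted p = 0.00264). *Klk6*, a secreted protease of myelinating cells, was at 1.12 to 3.55 CPM (median 2.38) and 0.874 to 2.404 CPM (median 1.34) (-0.86, SE 0.163, adjusted p = 0.00341). Smaller falls were those of *Trim36* (-0.66, adjusted p = 0.0039), *Kcnj16*, an inward rectifier (-0.41, 0.00471), *Btg1* (-0.39, 0.00432) and *Siah2*, a ubiquitin ligase (-0.34, 0.00341). Of the risen genes, *Irak2*, a kinase of interleukin-1 signalling, was at 20.5 to 30.4 CPM (median 22.7) and 26.2 to 41.7 CPM (median 30.7) (log2 fold change 0.44, adjusted p = 0.00296), *Serinc2* rose by 0.66 (adjusted p = 0.00473), *Adap2* by 0.48 (0.00471) and *Mapk1ip1* by 0.31 (0.00267). *Trpv4*, a cation channel, rose by 1.15 (adjusted p = 0.00258), and was at 0.895 to 1.82 CPM (median 1.40) in WT and 1.63 to 7.61 CPM (median 2.34) in WT + IPTG. Its 2 highest libraries, at 7.61 and 4.56 CPM, were the 2 with high choroid plexus genes, and without them its log2 fold change was 0.72 (adjusted p = 0.0447).

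Each of the 24 genes chosen by their p-values, 12 risen and 12 fallen, stayed called with any 1 of the 20 libraries left out. They were chosen on these same libraries, and being called without WT M4 was part of the choice. The outcome of that fit was thus set in advance, and that of the others was favoured. Some exons overlap those of a gene on the other strand (*Ucp2* with *Dnajb13*, *Mapk1ip1* with *Ppp2r2d*, *Dusp1* with *Ergic1*, *Cyp51* with *Akap9*, *Adap2* with *Adap2os*, *Col4a1* with *Col4a2*, *P2ry12* with *Med12l* and *Dnajc1* with *Mllt10*), and those of *Fdps* and *Ctla2a* a transcript on the same strand; whether counting used strand is not given in the sources used here, so reads of such a pair may not be told apart.

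No gene was called in the lists of red blood cell, pericyte and smooth muscle, meningeal fibroblast, choroid plexus, oligodendrocyte precursor, cortical excitatory neuron, cortical inhibitory neuron, striatal neuron, pituitary hormone, galactose and galactoside handling, heat and cold response, circadian clock, unfolded protein and amino acid stress, oxidative and xenobiotic response, and pre- and postsynaptic genes, nor among 83 ribosomal protein genes (median log2 fold change 0.10) and 13 mitochondrially encoded genes (-0.27). The 18 genes of galactose and galactoside handling, the closest to the chemistry of IPTG, had a median log2 fold change of -0.01 and summed to 399.5 to 468 CPM in WT and 399.6 to 427 CPM in WT + IPTG. Among 14 genes of the p53 response *Btg2* was the only call. The 11 choroid plexus genes, all positive, had a median log2 fold change of 1.64. It was -0.26 without WT + IPTG M1 and F4, the libraries in which they were high. The excitatory neuron genes, which mark the tissue as cortex, summed to 5210 to 6991 CPM in WT and 5723 to 7346 CPM in WT + IPTG, and the striatal neuron genes to 268 to 552 CPM and 281 to 573 CPM. Without WT M4 *Rorb*, of the excitatory list, was called as fallen. *Htt* itself (ENSMUSG00000029104, chromosome 5, 34761740 to 34912534) was at 90.9 to 145 CPM (median 124) in WT and 107.8 to 138 CPM (median 116.02) in WT + IPTG (log2 fold change -0.04, SE 0.0722, adjusted p = 0.905).

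More genes were called in males than in females. Within females, 5 against 5, edgeR called no gene of 33385 (0%), with 1724 at an unadjusted p under 0.05, and no gene when WT M4 was left out of the fit. Within males it called 216 (0.647%), 104 risen and 112 fallen, with 2970 at that p, and 281 without WT M4. Of the 191 genes called with and without WT M4, 190 had the same sign in females. There the medians were 0.33 for the risen and -0.29 for the fallen genes, against 0.77 and -0.54 in males. The 191 were chosen on these same libraries. In males 11 of the 20 sterol genes and 5 of the 18 myelin genes were called as fallen and 9 of the 22 glucocorticoid genes as risen (14, 7 and 10 without WT M4).

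The difference between the sexes was itself tested. It was called for 8 genes (0.024%), all with a larger effect in males: *Xdh*, *Hif3a*, *Sult1a1*, *Fkbp5*, *Plin4*, *Galnt15*, *Tekt4* and *Angptl4*; the same 8 were called without WT M4, among 11. The others of these 11 were *Nrros* (difference of the log2 fold changes 0.86, edgeR adjusted p = 0.0288), *Mlph* and *Slco4a1*. With filterByExpr, which drops genes of low counts, the difference was called for 0 genes, and with robust estimation for 4. No sterol or myelin gene was among the 8. Of the 8 only *Angptl4* was called for IPTG over both sexes. *Plin4*, a coat protein of lipid droplets, was at 15.5 to 43.1 CPM (median 32.3) in untreated females, 3.44 to 10.1 CPM (median 4.86) in untreated males, 20.3 to 35.04 CPM (median 23.96) in treated females and 17.2 to 42.02 CPM (median 19.4) in treated males (difference of the log2 fold changes 2.30, SE 0.384, adjusted p = 0.0154). The untreated males stood apart below the other 3 sets of mice. *Fkbp5* was at 37.5 to 71.8 CPM (median 50.3) in untreated females, 25.3 to 35.04 CPM (median 30.1) in untreated males, 44.5 to 56.2 CPM (median 50.7) in treated females and 47.03 to 80.5 CPM (median 70.1) in treated males (1.26, SE 0.207, adjusted p = 0.0154). *Sult1a1*, a sulfotransferase, had medians of 31.8, 12.8, 35.8 and 34.3 CPM in the same order (1.37, SE 0.216, adjusted p = 0.0134).

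*Xdh*, xanthine dehydrogenase, had medians of 20.7, 9.29, 21.8 and 29.1 CPM (1.46, adjusted p = 0.0134), and *Hif3a*, a hypoxia-inducible factor, 10.2, 4.99, 7.15 and 12.1 CPM (1.78, adjusted p = 0.0134). For *Angptl4* they were 9.36, 3.83, 13.9 and 17.8 CPM (1.78, adjusted p = 0.0341). *Galnt15*, a glycosyltransferase, and *Tekt4*, a protein of cilia, differed by 1.38 and 1.79 (adjusted p = 0.0314 and 0.0341). In each of the 8 the untreated males had the lowest median of the 4 sets, and in untreated mice alone the males were below the females, with log2 differences (male over female) from -0.79 for *Fkbp5* (adjusted p = 0.012) to -2.33 for *Plin4* (adjusted p = 4.2e-05). The 8 genes were chosen by the sex difference on these same libraries, and the untreated mice are a part of that difference. The low untreated males therefore describe the 8 and add no support. Since mice were housed by sex, genotype and treatment, sex and cage cannot be told apart here.

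**Figure D4:**
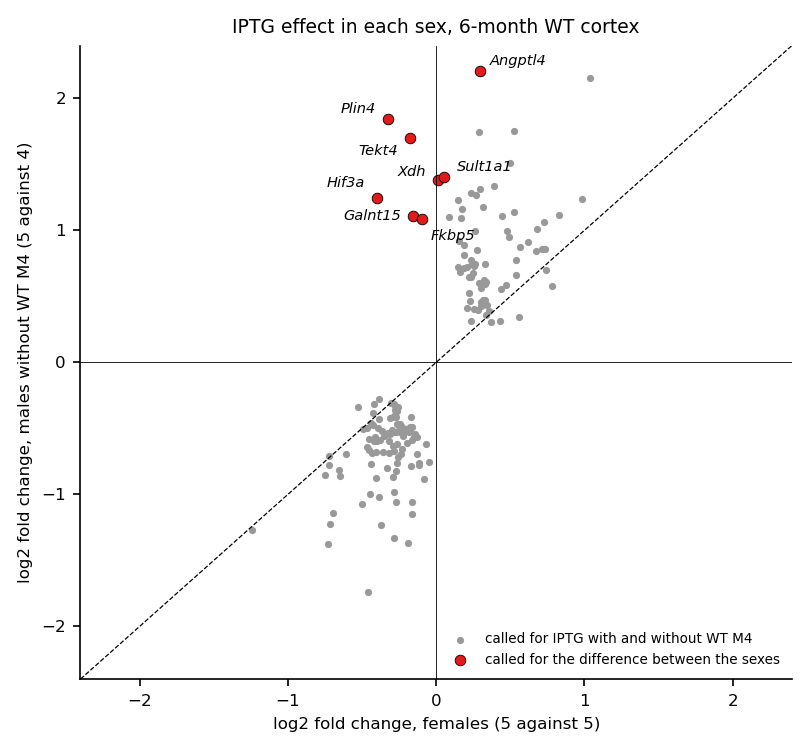
Log2 fold change, WT + IPTG over WT, in females (5 against 5 mice, horizontal) and in males without WT M4 (5 against 4 mice, vertical) for genes of at least 1 CPM in 6-month cortex. Grey points are genes called with and without WT M4, which were chosen on these same libraries, and red points the 8 genes called for the difference between the sexes; the red points are near 0 for females and above 1 for males.

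The striatum of the same mice was compared next. There 209 of 35808 genes were called (0.584%), 136 of them risen (127 and 79 without the mouse WT M4), and 40 genes were called in both tissues, 18.3% of the cortical and 19.1% of the striatal calls. Of the 191 cortical genes 176 had the same sign in striatum (51.1% of the 14807 genes of at least 1 CPM did), and the medians were 0.31 for the risen and -0.21 for the fallen genes, against 0.60 and -0.42 in cortex; the mice being the same, this is no independent replication. *Angptl4* had a log2 fold change of 1.15 in striatum (SE 0.197), *Zbtb16* 1.39 (SE 0.261), *Ucp2* 0.67 (SE 0.112), *Fos* -0.87 (SE 0.202), *Idi1* -0.31 (SE 0.0935) and *Ly6a* 0.47 (SE 0.0747). The astrocyte genes were closer to 0, *Gja1* at -0.01 (SE 0.059) and *Aqp4* at -0.04 (SE 0.0766). Of the lists, 8 of 22 glucocorticoid genes had risen in striatum, 4 of 20 sterol genes and 3 of 23 immediate early genes had fallen.

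A test of the difference between the tissues within mice called no gene of 35466 (0%) in edgeR, with 3199 at an unadjusted p under 0.05, of which 84 were among the 191. Without the mouse WT M4 it called 4: *Cdh10*, a cadherin, and *Pmaip1*, of cell death, whose difference was negative (-0.49 and -0.73 on the log2 scale with all mice), and *Gm28539* and the pseudogene *Rps13-ps1*, both under 1 CPM. With filterByExpr or robust estimation edgeR also called 0.

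At 12 months the cortex of other WT mice, 10 with and 10 without IPTG, showed no call among 34493 genes (0%) in edgeR, with 2001 at an unadjusted p under 0.05, and 0 with filterByExpr or robust estimation. Of the 191 genes 63 (32.98%) had the same sign as at 6 months, where 39.5% of the 14806 genes did, and the medians were -0.07 for the genes that had risen at 6 months and 0.12 for those that had fallen. *Fos* was at 8.07 to 26.3 CPM (median 20.8) in WT and 7.60 to 38.8 CPM (median 33.8) in WT + IPTG (log2 fold change 0.54, SE 0.211, adjusted p = 0.655), *Idi1* had a log2 fold change of 0.30 (SE 0.124), *Ucp2* -0.02 (SE 0.184), *Angptl4* -0.40 (SE 0.2) and *Zbtb16* -0.17 (SE 0.218). *Tinagl1*, at 0.25 (SE 0.221), and *Ly6a*, at 0.13 (SE 0.138), kept their sign. The ages were deposited in tables of their own, and the difference between them was not tested.

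LacQ140 mice, which carry the mutant allele under the *Lac* operators, gave a further comparison at 6 months: LacQ140 mice had IPTG throughout, LacQ140_A mice never, so the inducer and the mutant *Htt* it releases cannot be told apart. *Htt* was at 81.3 to 109 CPM (median 94.3) in LacQ140 and 69.5 to 95.1 CPM (median 82.8) in LacQ140_A (log2 fold change 0.20, SE 0.0724, adjusted p = 0.42). Of 35987 genes 3 were called (0.00834%), *Gh*, *Prl* and *Kank4*, all lower in LacQ140, and none of them was among the 219. The count was 11 with filterByExpr, 0 with robust estimation and 5 without WT M4. Of the 191 genes 148 (77.5%) had the sign they had in WT, against 60.8% of the genes of at least 1 CPM, with medians of 0.15 and -0.09. The sterol genes were not called in this comparison and had a list median of 0.00; *Idi1* was at 0.07 (SE 0.113). The glucocorticoid list had a median of 0.28, with *Arrdc2* at 0.55 (SE 0.167) and *Map3k6* at 0.43 (SE 0.163), and *Ugt8a* was at -0.47 (SE 0.135).

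**Figure D5:**
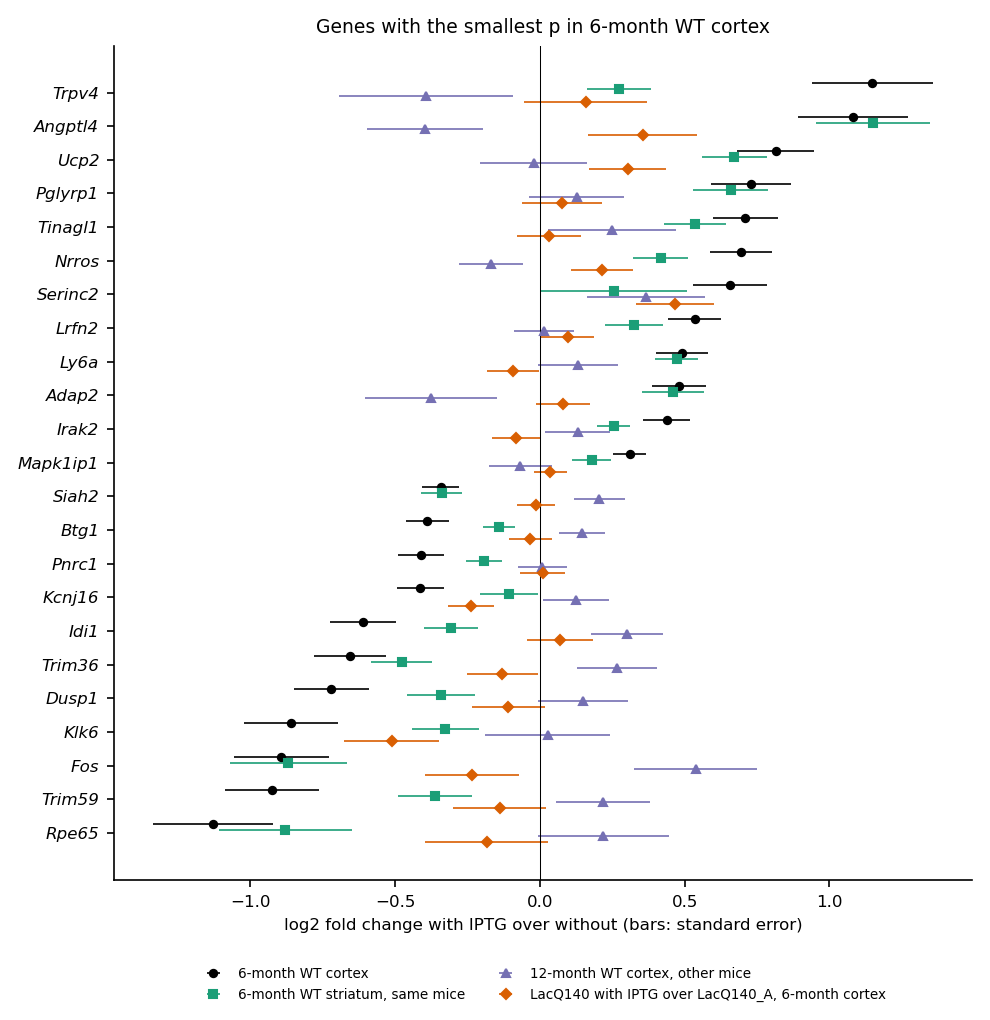
Log2 fold change with IPTG over without, with its standard error, for 23 of the 24 named genes chosen by p-value in 6-month WT cortex (black), in the striatum of the same mice (green), in the 12-month cortex of other WT mice (purple) and between LacQ140 and LacQ140_A mice at 6 months (orange). The black points were chosen for their size; the green points lie on the same side of 0, the purple points on either side, and most orange points closer to 0 than the black ones.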

How the data were processed

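Bulk RNA-seq (NovaSeq, paired-end, 100 bases) of 20 cortices was taken from tables of expected counts per gene as deposited by the authors, 1 table per age; 26.0% of the nonzero values of the 6-month table were not whole (tolerance 0.005), and all were rounded. The build was GRCm38 per the labels; aligner, counter and strand setting are not given in the sources used here. Gene symbols and positions came from GENCODE (54495 of 54532 IDs matched), promoters from RefSeq.

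Members, gene lists and tests were chosen with earlier results of these data known. Genes with at least 1 count were fitted over all 50 cortex libraries of 6 months, with 1 group per genotype and treatment (edgeR 4.0.16, TMM, quasi-likelihood test, R 4.3.3; DESeq2 1.42.0 as an alternative). Genes were called at an adjusted p under 0.05 with a change of at least 20%; SE is the log2 fold change over the root of F. Named genes were the 12 risen and 12 fallen of smallest p among those of at least 1 CPM called with and without WT M4, non-overlapping genes and called list members. Sex and tissue differences were interaction terms, with the mouse kept as a block for the tissues. The fit was tested on simulated data. Genes called for the sex, tissue or LacQ140 differences were named after their values were seen. No replicate pair agreed within sampling noise (lowest chi-square per degree of freedom 10.3 over 90 pairs). Nothing says that the samples of a group were prepared independently beyond being separate mice. Alternatives were sex or length slope as a covariate, size factors, filterByExpr, robust estimation, only the WT libraries, a replicate block and each library left out. Some genes that the naming rule selects are not reported here, and other mutant groups were not analysed here.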

Additional observations from a re-analysis of the deposited data

Results flagged for a closer look

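In 26 of 176 groups of 10 libraries tested, 1 library lay far from the other 9 (a gap to its neighbour over 0.466 of the group's range); chance gives about 1 in 20. In 13 of the 26 it was WT M4, all of them neutrophil genes or sums of neutrophil or red blood cell genes already known to stand apart in that library, so these are a description and are not set against chance. In that library *Camp* was at 48.1 CPM, *Ngp* at 54.2, *S100a8* at 131, *S100a9* at 219, *Ltf* at 19.8, *Mpo* at 8.36, *Retnlg* at 13.5, *Mmp8* at 4.10, *Chil3* at 15.002, *Cd177* at 4.33 and *Fcnb* at 1.55 CPM, the neutrophil genes summed to 567.6 CPM and the red blood cell genes to 1780.3 CPM.

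Among the other untreated libraries, *Ucp2* was high in WT F5 (40.7 CPM), as was *Slc2a1* (206.5 CPM), *Ly6a* was low in WT F4 (26.7 CPM), and choroid plexus genes summed to 178 CPM in WT M3. Among the treated ones, *Angptl4* was at 27.9 CPM and the glucocorticoid genes summed to 2002 CPM in M2, *Trpv4* was at 7.61 CPM in M1, *Klk6* at 2.404 CPM in F2, *Ngp* at 0.196 and *Mmp8* at 0.117 CPM in F3, *Tek* at 18.5 and *Aqp4* at 121.6 CPM in M3, and *Btg2* at 41.4 CPM in M5.

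The effect of IPTG differed between the sexes, by the test of the difference, for 8 genes, with log2 fold changes that were larger in males by 1.38 for *Galnt15*, 1.79 for *Tekt4*, 1.26 for *Fkbp5*, 1.78 for *Angptl4*, 2.30 for *Plin4*, 1.46 for *Xdh*, 1.78 for *Hif3a* and 1.37 for *Sult1a1*.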

How the results depend on the processing

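The 219 calls became 46 with a replicate block (13 risen, 34 of the 219 among them; 160 without WT M4, 74 risen), 150 with only the WT libraries (412 when WT M4 was left out too), 503 with DESeq2 and no WT M4 (DESeq2 with all libraries moved it by less than 1.5 times), 124 without the libraries with high choroid plexus genes, and 103 to 330 with 1 library left out: 103 without WT M5, 107 without WT M2, 126 without WT + IPTG M1, 136 without WT + IPTG M4 and 330 without WT F4. No other setting moved the count by more than 1.5 times. The labels do not say that equal replicate numbers pair the mice. The deviations of same-numbered samples correlated by -0.379 to 0.367 (mean -0.046, against 0.011 for other pairs) and over 0.1 in 3 of 10 pairs. Of 20 samples 4 correlated best with their own number. So few pairs cannot settle whether the numbers pair the mice. Of the 24 genes of smallest p-value, 17 were called under the block and all 24 under every other setting run on all 20 libraries; *Trpv4* was lost without the choroid and WT M4 libraries together. The sterol list fell to 3 calls under the block, and the glucocorticoid and fuel lists to 1 each.

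Without WT M4 the striatum had 127 calls, the tissue difference 4 and the LacQ140 comparison 5. The sex difference had 0 calls with filterByExpr and 4 with robust estimation, and the LacQ140 comparison 11 and 0. *Htt* turned to 0.040 with the length slope. The neutrophil genes reversed under DESeq2, which replaces outlying counts: *Camp* 1.27, *Ngp* 0.30, *S100a8* 0.062, *S100a9* 0.12, *Ltf* 0.044, *Mpo* 0.21, *Retnlg* 0.40, *Mmp8* 1.06, *Chil3* 0.48, *Cd177* 1.37 and *Fcnb* 1.08 (log2 fold changes). With 1 library left out they ranged from -7.00 to 1.04 for *Camp*, -6.80 to 0.27 for *Ngp*, -5.78 to 0.069 for *S100a8*, -5.91 to 0.16 for *S100a9*, -6.23 to 0.0055 for *Ltf*, -4.03 to 0.19 for *Mpo*, -3.82 to 0.47 for *Retnlg*, -5.00 to 0.78 for *Mmp8*, -4.66 to 0.58 for *Chil3*, -5.05 to 1.66 for *Cd177* and -3.61 to 0.89 for *Fcnb*, with the positive end in each case without WT M4. The cause of the other changes was not tested. At 37915538 counts or more a library, genes under 1 CPM rest on few reads, and 34 of the 219 calls were such genes.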

Other observations

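Some genes with no place in the lists also changed; they were picked after their values were seen. *C4b*, a complement component that astrocytes and other glia make, was at 14.1 to 24.3 CPM (median 21.5) in WT and 20.4 to 33.3 CPM (median 28.1) in WT + IPTG (log2 fold change 0.41, SE 0.0869, adjusted p = 0.00945), and stayed called with each library left out. *Fam107a*, an actin-bundling protein of astrocytes and neurons, was at 695 to 1278 CPM (median 884) in WT and 992 to 1704 CPM (median 1244) in WT + IPTG (log2 fold change 0.46, SE 0.108, adjusted p = 0.0246). *Cpt1b*, a carnitine palmitoyltransferase, was at 0.688 to 1.79 CPM (median 0.974) in WT and 1.36 to 2.70 CPM (median 1.81) in WT + IPTG (log2 fold change 0.76, SE 0.175, adjusted p = 0.0213). The groups overlapped for these 3.

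The 29 interferon-response genes had a median log2 fold change of 0.19, against -0.001 over all genes of at least 1 CPM; *Ly6a* was called, and without WT M4 *Bst2* as well. The list summed to 521 to 641 CPM in WT and 562 to 698 CPM in WT + IPTG. The heat shock genes *Hspa1a* and *Hspa1b* reached 48.03 and 42.5 CPM in WT M3 and 10.2 and 10.3 CPM in WT + IPTG and were not called (adjusted p = 0.409 and 0.359).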
